A study of Homo sapiens with 6 samples.

Results

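The genes examined encode chains of the laminin-332 and laminin-511 trimers and the parts of the hemidesmosome, the junction that anchors an epithelial cell to its basement membrane. The list named 9 genes: LAMB3, LAMA3, LAMA5, LAMC1, ITGA6, ITGB4, COL17A1, DST and PLEC. Members were taken as the rows of the expression table whose Ensembl identifier maps to a listed symbol, which gave 7 of the 9 among 10487 genes, and LAMA3 and COL17A1 were not analysed here. The list was chosen on results of the same comparison, in which LAMB3 was already known to be higher, so every level and difference given below for a member is a description without a test.

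Gene expression was measured in MDAMB468, a cell line from a human triple negative breast cancer. The control group held 3 biological replicates of untreated cells that the labels give as wild type. The IGFBP2 overexpression group held 3 biological replicates of MDAMB468-VHP-IGFBP2 cells, in which an inactive Cas9 fused to transcriptional activators (VHP) is guided to the IGFBP2 promoter, after blasticidin selection and sorting of guide-positive cells. Whether the control cells carried the activator without the guide, or went through selection and sorting, is not given in the sources used here, so IGFBP2 and these steps cannot be told apart in the differences below. All libraries came from total RNA and were read from the 3′ end of the transcripts (QuantSeq), so that a transcript gives about 1 tag whatever its length. Levels are given as CPM, the reads of a gene divided by the normalized reads of its library on a scale shared by all libraries, recovered from deposited log2(CPM + 1) values. Where 3 values of a group are given, they follow the order of replicates 1, 2 and 3.

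In replicate order, the genes of the table held 4579587, 3530444 and 2497353 reads in the control libraries and 2547997, 3068198 and 3069734 reads in the IGFBP2 overexpression libraries. A single read was worth 0.222 CPM in the deepest library, control replicate 1, and 0.404 CPM in the shallowest, control replicate 3. Mean IGFBP2 expression went from 106 ± 26.4 to 747 ± 373 CPM (SD over 3 libraries per group), with no overlap between groups. All 8 epithelial marker genes looked for (EPCAM, CDH1, KRT7, KRT8, KRT18, KRT19, CLDN4 and CLDN7) were measured. KRT19 was the most abundant at 2041 to 3198 CPM, and their summed level was 6134, 4742 and 5804 CPM in the control libraries and 5518, 5742 and 5055 CPM in the IGFBP2 overexpression libraries. Of these markers, CLDN4, a tight junction claudin, was at 186.5, 185 and 342 CPM in the control libraries and at 139, 109.7 and 176 CPM in the IGFBP2 overexpression libraries, with no overlap (log2 fold change -0.71, adjusted p = 0.34 with limma). With each library left out, the log2 fold change of CLDN4 lay between -0.876 and -0.415. KRT7 was also lower with no overlap (log2 fold change -0.46, adjusted p = 0.362 with limma). EPCAM had means of 339 ± 39.0 and 415 ± 53.9 CPM (SD, n = 3 per group) with overlapping groups. EGFR was at 805 to 1358 CPM and ERBB2 at 15.8 to 37.0 CPM over the 6 libraries, and ESR1 and PGR were not analysed here. None of 6 blood cell and none of 4 endothelial markers could be analysed here, and of 7 fibroblast markers 1 had values, COL1A1, at 9.36 to 27.5 CPM.

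Laminins are secreted trimers of an alpha, a beta and a gamma chain, which assemble inside the cell and are laid down in the basement membrane. Laminin-332, which contains the products of LAMA3 and LAMB3, is the ligand that the hemidesmosome holds, and laminin-511, built from those of LAMA5, LAMB1 and LAMC1, is a widespread basement membrane laminin. Integrin alpha-6 beta-4, from ITGA6 and ITGB4, is the laminin receptor of the hemidesmosome. On the inner side the plakins plectin (PLEC) and dystonin (DST) tie the receptor to keratin filaments, and collagen XVII (COL17A1) spans the membrane beside it. Laminin-332 is known for roles in epithelial adhesion, migration and wound repair.

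Of the 7 members, LAMB3 was the one whose level differed most between the groups. It was 8.64-fold higher by the ratio of the means, while the other 6 had ratios between 0.677 (DST) and 1.34 (ITGB4). Libraries of the 2 groups did not overlap for LAMB3, which was higher in IGFBP2 overexpression cells, and for DST, which was lower, and they overlapped for the remaining 5. In the table as a whole, 1892 of 10487 genes, or 18%, had all libraries of one group above or below all of the other. The fit across all genes (limma with Benjamini-Hochberg adjustment, adjusted p under 0.05) called 66 of 10487 genes, or 0.629%, with 45 higher and 21 lower, and 1 of the 7 members, LAMB3, was among them. Since the list was chosen on this comparison, nothing follows from that count. At an unadjusted p under 0.05 there were 1364 genes, or 13% of the table, and 5241 of the 10487 log2 fold changes were under 0, which are the shares beside which the counts of the related lists below stand. The median log2 fold change was -0.03 over the members and 0.00 over all genes.

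LAMB3 (ENSG00000196878) encodes the beta chain of laminin-332 and lies on the minus strand of chromosome 1 from 209614870 to 209652425 (GRCh38, GENCODE 44). Its expression was 7.99, 4.45 and 4.04 CPM in the control libraries and 63.9, 41.3 and 37.1 CPM in the IGFBP2 overexpression libraries. These values rested on 36, 16 and 10 reads in the control libraries and on 164, 128 and 113 reads in the IGFBP2 overexpression libraries. Every IGFBP2 overexpression library was above every control library, and replicate 1 was the highest library of both groups. The control mean was 5.50 ± 2.17 CPM (SD, n = 3) and the IGFBP2 overexpression mean 47.5 ± 14.4 CPM (SD, n = 3). The log2 fold change was 2.91 (standard error 0.29) on the log2(CPM + 1) scale, which understates the change of low genes. It lay between 2.68 and 3.17 with each library left out in turn. In bulk RNA, a higher level in every cell and a larger share of cells with a high level cannot be told apart.

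A promoter window of LAMB3 is shown because LAMB3 differed most, and one of DST because it was the other member without overlap. Each of these genes has 3 windows, and the one printed is its only window with the AP-1 letters described below. RefSeq promoter windows (GRCh38.p14, from 250 bases before to 50 after a start site) were examined for 5 of the 7 members, in 10 windows. ITGB4 and PLEC were not examined, so the counts of windows below do not cover them. The letters TGANTCA, the core of the AP-1 binding site, which reads the same way on both strands, were found in 2 of the 10, the third of 3 windows of LAMB3 and the first of 3 of DST (counted from the 5′ end of the gene). The LAMB3 match has its first base at -67 and the DST match at 26, both relative to the start site of the window. Among all 35116 promoter windows, 7.71% held this motif on either strand. The letters GGGCGG (a GC box) were in 8 of the 10 windows and in 45% of all windows, and TATAAA was in 1 of the 10 and in 11.5% of all. None of the 3 motifs contains another. The windows are printed 5′ to 3′ on the gene's own strand, in lower case with the AP-1 letters in capitals. They are chr1:209651325-209651624 for LAMB3 and chr6:56954781-56955080 for DST, both on the minus strand.
LAMB3: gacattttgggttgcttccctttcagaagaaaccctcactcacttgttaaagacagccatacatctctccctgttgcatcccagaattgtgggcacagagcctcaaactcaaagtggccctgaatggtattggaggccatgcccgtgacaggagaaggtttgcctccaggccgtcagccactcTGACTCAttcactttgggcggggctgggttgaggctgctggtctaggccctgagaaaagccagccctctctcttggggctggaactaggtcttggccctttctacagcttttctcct
DST: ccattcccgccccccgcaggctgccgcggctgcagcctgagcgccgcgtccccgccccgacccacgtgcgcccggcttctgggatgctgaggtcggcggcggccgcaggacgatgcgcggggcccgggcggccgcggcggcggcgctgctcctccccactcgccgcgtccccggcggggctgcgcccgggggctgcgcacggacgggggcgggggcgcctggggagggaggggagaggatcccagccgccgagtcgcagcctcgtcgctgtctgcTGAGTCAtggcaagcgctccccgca
A match of letters is a description of the window and not a site shown to be bound. Tags from the 3′ end do not tell which start site was in use, and windows 2 and 3 of DST held no AP-1 match.

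**Figure D1:**
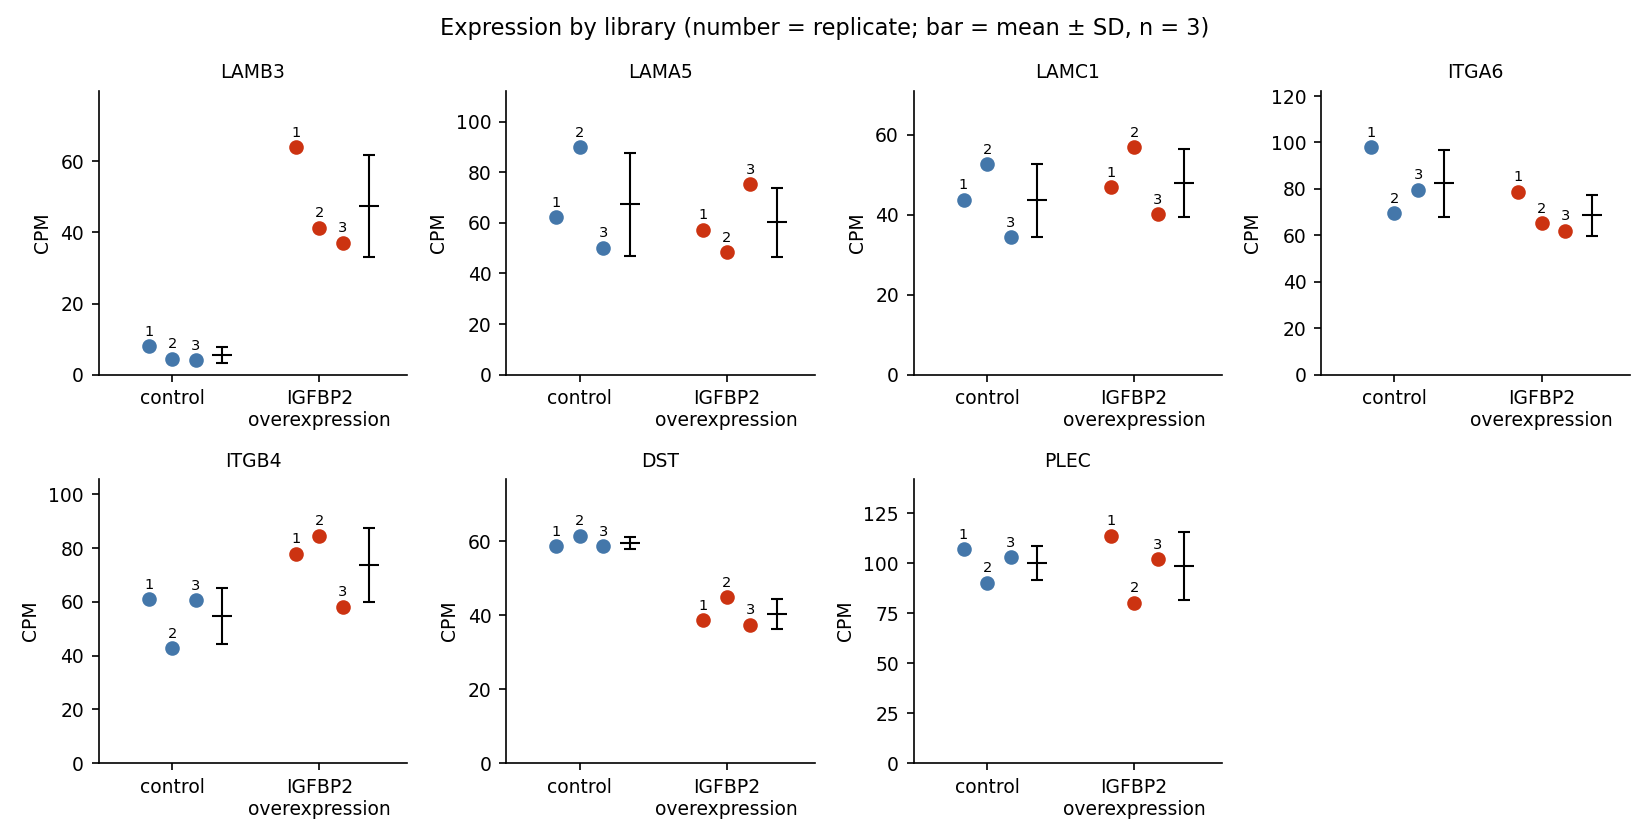
CPM in each library for the 7 members, with replicates numbered in control (blue) and IGFBP2 overexpression (red) libraries and bars for the mean ± SD (n = 3). The groups are apart for LAMB3 and DST, with LAMB3 at 4.04 to 7.99 CPM in control and 37.1 to 63.9 CPM in IGFBP2 overexpression libraries, and they overlap in the other panels.

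The laminin-511 chains on the list showed no such separation. LAMA5 (ENSG00000130702, chromosome 20 from 62307955 to 62367312, minus strand), the alpha chain, was at 62.2, 89.8 and 50.1 CPM in the control libraries and at 57.3, 48.4 and 75.2 CPM in the IGFBP2 overexpression libraries. The highest library, control replicate 2, and the lowest, IGFBP2 overexpression replicate 2, carry the same replicate number, and the groups overlapped. The means were 67.4 ± 20.4 and 60.3 ± 13.7 CPM (SD, n = 3 per group) and the log2 fold change was -0.14 (standard error 0.26). Leaving out either of these replicate 2 libraries turned its sign. Exons of LAMA5 overlap those of ADRM1, a proteasome gene on the opposite strand with a mean of 241 CPM, and the strand setting of the counting is not given in the sources used here. Reads of the 2 genes may therefore not be separated.

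LAMC1 (ENSG00000135862, chromosome 1 from 183023420 to 183145592, plus strand), the gamma chain of laminin-511, was at 43.7, 52.6 and 34.4 CPM in the control libraries and at 46.8, 56.8 and 40.1 CPM in the IGFBP2 overexpression libraries. Replicate 2 was the highest and replicate 3 the lowest library in both groups. The means were 43.6 ± 9.10 and 47.9 ± 8.42 CPM (SD, n = 3 per group) and the log2 fold change was 0.14 (standard error 0.22), which changed sign without control replicate 3. The ratio of LAMA5 to LAMC1 tags was 1.42, 1.71 and 1.46 in the control libraries and 1.22, 0.852 and 1.88 in the IGFBP2 overexpression libraries, so the IGFBP2 overexpression libraries lay on both sides of the control libraries.

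Among the other laminin chains, 0 of 3 genes tested passed the threshold, against 0.629% of all genes, and 1 had an unadjusted p under 0.05, LAMA4. The median log2 fold change was -0.28. LAMA4, an alpha chain found mostly around vessels and mesenchymal cells, was at 111, 64.0 and 90.6 CPM in the control libraries and at 52.2, 41.6 and 75.9 CPM in the IGFBP2 overexpression libraries. The groups overlapped through control replicate 2 and IGFBP2 overexpression replicate 3 (log2 fold change -0.64, standard error 0.28, adjusted p = 0.379 with limma). LAMB1, the beta chain of laminin-511, had groups that were just apart, with 72.4 CPM in the highest control and 72.9 CPM in the lowest IGFBP2 overexpression library. The means were 61.7 ± 16.7 CPM and 75.2 ± 2.83 CPM (SD, n = 3 per group), for a log2 fold change of 0.32 (adjusted p = 0.623 with limma). Without control replicate 3, the log2 fold change of LAMB1 was 0.07.

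For the receptor of the hemidesmosome, the alpha and beta subunit genes had differences of opposite sign, each with overlapping groups. ITGA6 (ENSG00000091409, chromosome 2 from 172427354 to 172506459, plus strand), the alpha-6 subunit, was at 97.9, 69.5 and 79.7 CPM in the control libraries and at 78.7, 65.2 and 62.1 CPM in the IGFBP2 overexpression libraries. Control replicate 1 was the highest library, and the groups overlapped. The means were 82.4 ± 14.4 and 68.7 ± 8.86 CPM (SD, n = 3 per group) and the log2 fold change was -0.25 (standard error 0.20). With each library left out, the log2 fold change of ITGA6 lay between -0.37 and -0.12, and was -0.12 without control replicate 1.

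ITGB4 (ENSG00000132470, chromosome 17 from 75721328 to 75757818, plus strand), the beta-4 subunit whose long tail binds plectin, was at 61.0, 42.8 and 60.7 CPM in the control libraries and at 78.0, 84.6 and 58.1 CPM in the IGFBP2 overexpression libraries. IGFBP2 overexpression replicates 1 and 2 were above every control library, and replicate 3 was below control replicates 1 and 3. The means were 54.8 ± 10.4 and 73.6 ± 13.8 CPM (SD, n = 3 per group) and the log2 fold change was 0.42 (standard error 0.23). With each library left out, the log2 fold change of ITGB4 lay between 0.25 and 0.58.

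Neither subunit separated the groups, but their ratio did. The ratio of ITGB4 to ITGA6 tags was 0.624, 0.616 and 0.761 in the control libraries and 0.990, 1.30 and 0.937 in the IGFBP2 overexpression libraries. The mean was 0.667 ± 0.0819 (SD, n = 3) in control cells and 1.07 ± 0.195 (SD, n = 3) in IGFBP2 overexpression cells, with every IGFBP2 overexpression library above every control library. This ratio is a description that was not tested, and it does not show which of the subunits differed.

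**Figure D2:**
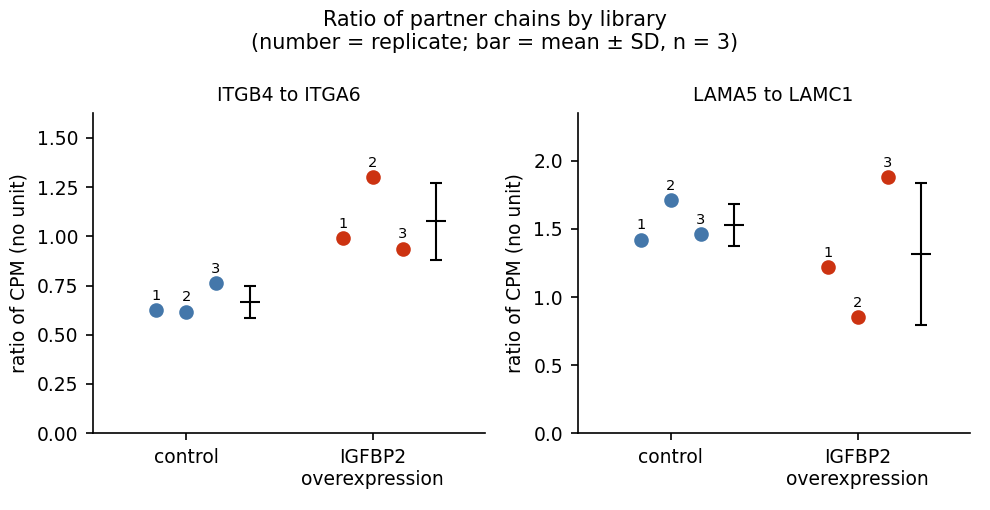
Ratio of CPM (no unit) of partner genes in each library, ITGB4 to ITGA6 and LAMA5 to LAMC1, with numbered replicates of control (blue) and IGFBP2 overexpression (red) and bars for the mean ± SD (n = 3). The first ratio is 0.616 to 0.761 in control and 0.937 to 1.30 in IGFBP2 overexpression libraries, and the second overlaps between the groups.

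Other laminin receptors and their membrane partners were measured in 11 genes, of which 0 passed the threshold in either direction, 2 had an unadjusted p under 0.05 (13% of all genes), and the median log2 fold change was -0.02. ITGA3, the alpha subunit of the laminin-binding integrin alpha-3 beta-1, was at 60.6, 51.5 and 42.9 CPM in the control libraries and at 81.9, 74.9 and 65.4 CPM in the IGFBP2 overexpression libraries. The groups were apart (log2 fold change 0.52, 95% interval 0.06 to 0.98), but with an adjusted p of 0.320 the difference did not pass in the fit across all genes by limma. SDC2, a cell surface heparan sulphate proteoglycan, had means of 53.0 ± 13.9 and 77.6 ± 9.38 CPM (SD, n = 3 in each group) with overlapping groups (log2 fold change 0.57, adjusted p = 0.335 with limma).

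The plakins DST and PLEC, which link the receptor to keratin filaments, form the inner plaque of the hemidesmosome. The groups were apart for DST and overlapped for PLEC. DST (ENSG00000151914, chromosome 6 from 56457987 to 56954830, minus strand) was at 58.6, 61.5 and 58.6 CPM in the control libraries and at 38.6, 44.9 and 37.5 CPM in the IGFBP2 overexpression libraries. All 3 IGFBP2 overexpression libraries were below all control libraries. The means were 59.6 ± 1.65 CPM (SD, n = 3) and 40.3 ± 3.99 CPM (SD, n = 3), a ratio of 0.677. The log2 fold change was -0.56 (standard error 0.17) and lay between -0.63 and -0.51 with each library left out. The gene makes several isoforms for epithelium, nerve and muscle, which the single value per gene does not separate.

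PLEC (ENSG00000178209) was the most abundant member in control cells. It was at 107, 90.4 and 103 CPM in the control libraries and at 114, 80.4 and 102 CPM in the IGFBP2 overexpression libraries. The highest and the lowest library were both IGFBP2 overexpression libraries. The means were 100.2 ± 8.68 and 98.8 ± 17.0 CPM (SD, n = 3 per group) and the log2 fold change was -0.03 (standard error 0.20), which changed sign when control replicate 1 or IGFBP2 overexpression replicate 2 was left out.

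Of the other plakins and cytolinkers, 4 genes were tested and 0 passed the threshold, 1 had an unadjusted p under 0.05, and all 4 had a log2 fold change under 0 (median -0.38, against 0.00 over all genes). EPPK1, epiplakin, a keratin-binding plakin, was at 29.5, 36.7 and 48.5 CPM in the control libraries and at 15.2, 16.5 and 26.9 CPM in the IGFBP2 overexpression libraries, with no overlap. Its log2 fold change was -0.95 (95% interval -1.56 to -0.34, adjusted p = 0.197 with limma). EVPL, envoplakin, was at 44.1 ± 14.9 and 31.7 ± 3.43 CPM (SD, n = 3 in each group), with overlapping groups (adjusted p = 0.538 with limma).

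Ranked by tags, the control cells had the members in the order PLEC, ITGA6, LAMA5, DST, ITGB4, LAMC1 and LAMB3. Neighbours from PLEC to LAMC1 had overlapping libraries, and LAMB3 stood apart: its highest control value, 7.99 CPM, was under the lowest value of any other member, 34.4 CPM for LAMC1. In IGFBP2 overexpression cells the order was PLEC, ITGB4, ITGA6, LAMA5, LAMC1, LAMB3 and DST. There LAMB3, at 37.1 to 63.9 CPM, overlapped LAMC1, LAMA5, ITGA6, ITGB4 and DST. The summed level of the 7 members was 438, 411 and 391 CPM in the control libraries and 477, 422 and 412 CPM in the IGFBP2 overexpression libraries, so the groups overlapped.

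The members also differed in how well their replicates held together. The spread enters the test of the comparison on which the list was chosen, so these values are a description too. The pooled within-group SD of the log2 values was 0.43 for LAMB3, 0.37 for LAMA5, 0.28 for ITGB4, 0.28 for LAMC1, 0.22 for ITGA6, 0.20 for PLEC and 0.10 for DST, beside a median of 0.27 over all genes. Counting of reads alone, with no other source of spread, would give 0.23 for LAMB3, 0.10 for LAMA5, 0.10 for ITGB4, 0.12 for LAMC1, 0.095 for ITGA6, 0.08 for PLEC and 0.12 for DST, and separate biological replicates usually vary more than that. LAMA5 was the most variable beside genes of like level, of which 89.5% of 1913 had a smaller SD. For DST, 4.58% of 2120 genes of like level had a smaller SD. LAMB3, with at most 36 reads in a control library, was among the less precise members, with 79.5% of like genes below its SD.

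Keratins, the filaments that the plakins hold, were measured in 9 genes with 0 past the threshold, 2 with an unadjusted p under 0.05 (13% of all genes) and a median log2 fold change of -0.09. KRT6B, a keratin of activated and wounded epithelium, was at 14.4, 7.79 and 6.47 CPM in the control libraries and at 32.4, 39.4 and 22.3 CPM in the IGFBP2 overexpression libraries. The groups did not overlap, and the log2 fold change was 1.65 (standard error 0.31, adjusted p = 0.0638 with limma). With limma voom on the recovered reads, a fit that called 141 genes or 1.34% of all, it passed (adjusted p = 0.0273), and over the 15 alternatives its adjusted p ranged from 0.0101 to 0.237. KRT6B has near-identical paralogs among which counting could split reads. KRT7, a keratin of simple epithelium, had means of 807 ± 70.8 and 590 ± 93.4 CPM (SD, n = 3 in each group), with no overlap (log2 fold change -0.46, adjusted p = 0.362 with limma).

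Of 8 other basement membrane genes, 1 rose past the threshold and 0 fell, where 0.629% of all genes were called. At an unadjusted p under 0.05 there was 1 gene, or 12.5%, beside 13% of all genes. The median log2 fold change was -0.02. The gene past the threshold was COL4A2, a chain of collagen IV, the network on which laminins lie. It was at 3.77, 3.62 and 0.404 CPM in the control libraries and at 21.8, 15.2 and 18.1 CPM in the IGFBP2 overexpression libraries. These values were 17, 13 and 1 reads in the control libraries and 56, 47 and 55 reads in the IGFBP2 overexpression libraries, so the lowest control value rested on a single read in the shallowest library. The log2 fold change was 2.61 (standard error 0.43, adjusted p = 0.0425 with limma). Over the alternatives the adjusted p ranged from 0.00214 to 0.149, and COL4A2 did not pass without control replicate 2 (adjusted p = 0.0506) or without IGFBP2 overexpression replicate 1, 2 or 3 (adjusted p = 0.149, 0.144 and 0.0977, all from limma), nor with a pseudocount of 0.1 (adjusted p = 0.132) or 0.5 (adjusted p = 0.0768). Where the call was lost the log2 fold change was 2.48 to 3.24. COL4A1, its usual partner chain, was not analysed here.

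Enzymes that cut laminin-332 or collagen XVII were tested in 7 genes, with 0 past the threshold, 2 with an unadjusted p under 0.05 (13% of all genes) and a median log2 fold change of 0.15. BMP1, a protease that processes the laminin-332 chains, was at 13.3, 13.3 and 16.6 CPM in the control libraries and at 26.1, 22.6 and 23.3 CPM in the IGFBP2 overexpression libraries. The groups did not overlap (log2 fold change 0.70, 95% interval 0.29 to 1.12, adjusted p = 0.163 with limma). MMP2, a gelatinase that can cut laminin-332, was at 5.83 ± 3.403 and 13.0 ± 5.35 CPM (SD, n = 3 in each group), with overlapping groups (adjusted p = 0.294 with limma).

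The neighbouring adhesion structures had list medians of -0.08 for desmosomes and 0.10 for focal adhesions. Desmosomes, which join cell to cell through the same keratins, had 8 genes tested, 0 past the threshold and 0 with an unadjusted p under 0.05, and their log2 fold changes ran from -0.20 (DSC3) to 0.25 (PKP3). Libraries of the groups overlapped for all 8, where 18% of all genes did not overlap. Focal adhesions, which tie integrins to actin, had 21 genes tested, 0 past the threshold and 2, or 9.5%, with an unadjusted p under 0.05. Their log2 fold changes ran from -0.44 to 0.71, with 14 of 21 above 0, and 2 genes had all IGFBP2 overexpression libraries above the control libraries. The smallest p-values there were those of LIMS2 (log2 fold change 0.71, adjusted p = 0.267 with limma), an adaptor of integrin-linked kinase, and ZYX, zyxin (log2 fold change 0.53, adjusted p = 0.295 with limma).

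Transcription factors known at laminin and integrin promoters were tested in 13 genes, with 0 past the threshold, 3 with an unadjusted p under 0.05 (1364 of 10487 in the table) and 11 of 13 log2 fold changes under 0 (5241 of 10487 in the table). The factors with values above 0 were SMAD3 and FOSL1. SMAD3, which carries TGF-beta signals to the nucleus, was at 20.2, 16.4 and 12.9 CPM in the control libraries and at 29.6, 31.0 and 30.5 CPM in the IGFBP2 overexpression libraries. The groups did not overlap (log2 fold change 0.86, 95% interval 0.40 to 1.32, adjusted p = 0.129 with limma). FOSL1, an AP-1 subunit named here after its values were seen, was at 71.9, 28.6 and 15.4 CPM in the control libraries and at 89.7, 58.8 and 48.6 CPM in the IGFBP2 overexpression libraries. Its groups overlapped through control replicate 1 (log2 fold change 0.98, and 0.47 to 1.55 with each library left out). JUNB, another subunit of AP-1, had means of 156 ± 24.6 and 104 ± 14.5 CPM (SD, n = 3 in each group), with no overlap (log2 fold change -0.57, adjusted p = 0.289 with limma).

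**Figure D3:**
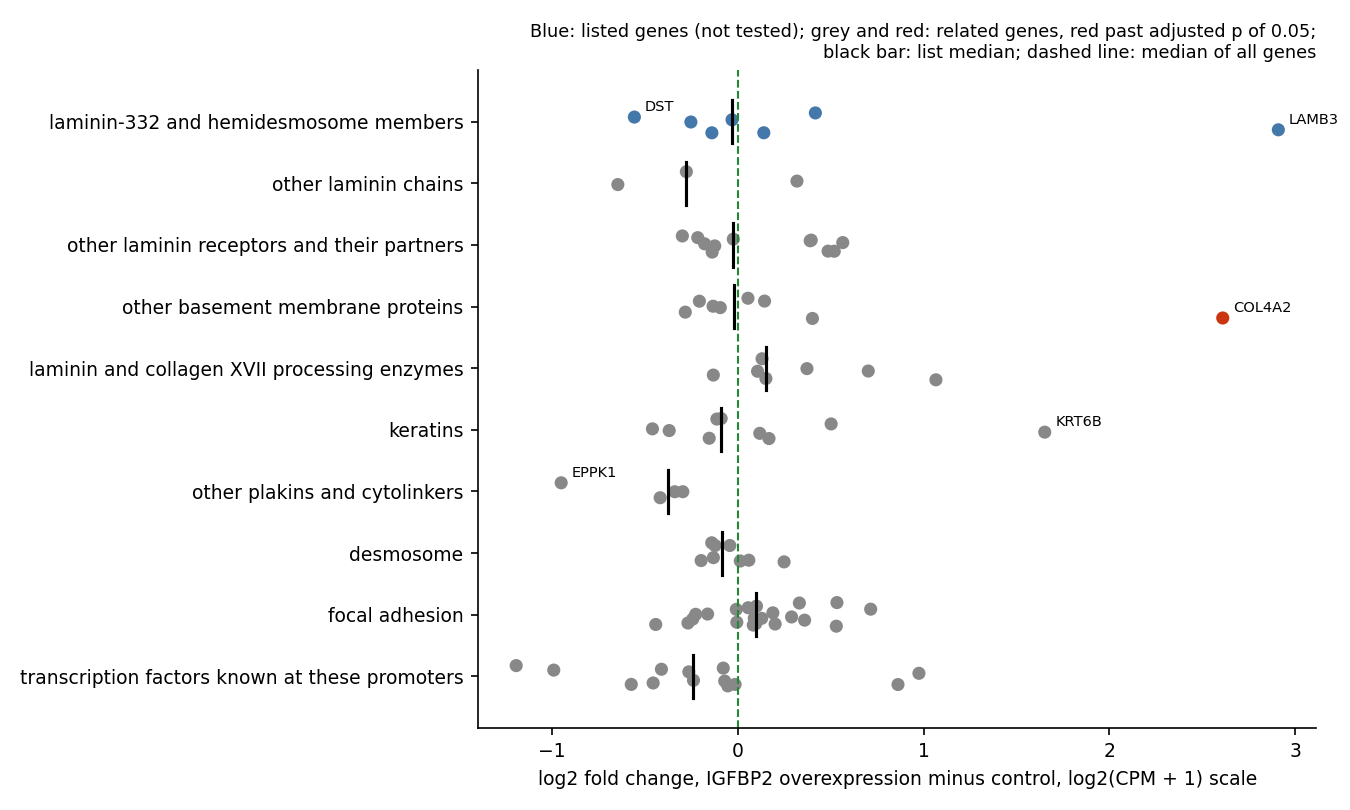
Log2 fold change (IGFBP2 overexpression minus control, log2(CPM + 1) scale) of each gene of the listed members (blue, not tested) and of the related lists (grey, or red past the adjusted p of 0.05), with list medians as black bars and the median of all genes as a dashed line. LAMB3 at 2.91 and COL4A2 at 2.61 stand far to the right, and the list medians run from -0.38 to 0.15.

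Over all 9 related lists, 1 of 84 genes tested passed the threshold and 14, or 16.7%, had an unadjusted p under 0.05, beside 13% of all genes, and the median log2 fold change was -0.02. Of these genes, 9 had all IGFBP2 overexpression libraries above and 4 had all below the control libraries, beside 989 and 903 of 10487 in the whole table. The share is near that of the table.

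The genes whose pattern over the 6 libraries was most like that of LAMB3 were F3, IL7R, OLFML3, SPHK1 and IGFBP3. Likeness was the root mean square difference of the log2(CPM + 1) values after each gene was centred on its own mean, which was 0.32 for F3, 0.40 for IL7R, 0.42 for OLFML3, 0.46 for SPHK1 and 0.47 for IGFBP3. F3, tissue factor, was at 7.33, 5.84 and 6.47 CPM in the control libraries and at 61.2, 47.1 and 27.9 CPM in the IGFBP2 overexpression libraries. Like LAMB3, it was highest in IGFBP2 overexpression replicate 1 and lowest among that group in replicate 3. The same held for IL7R, a cytokine receptor chain, at 83.4, 67.8 and 43.7 CPM in these libraries, for OLFML3, a secreted glycoprotein, at 303, 259 and 138 CPM, and for IGFBP3, an IGF binding protein, at 381, 299 and 98.5 CPM. SPHK1, sphingosine kinase, was at 25.7, 28.7 and 32.5 CPM there, with replicate 1 the lowest. Because LAMB3 was chosen for its difference, genes near it differ between the groups as well, and their values are a description that supports nothing about LAMB3.

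**Figure D4:**
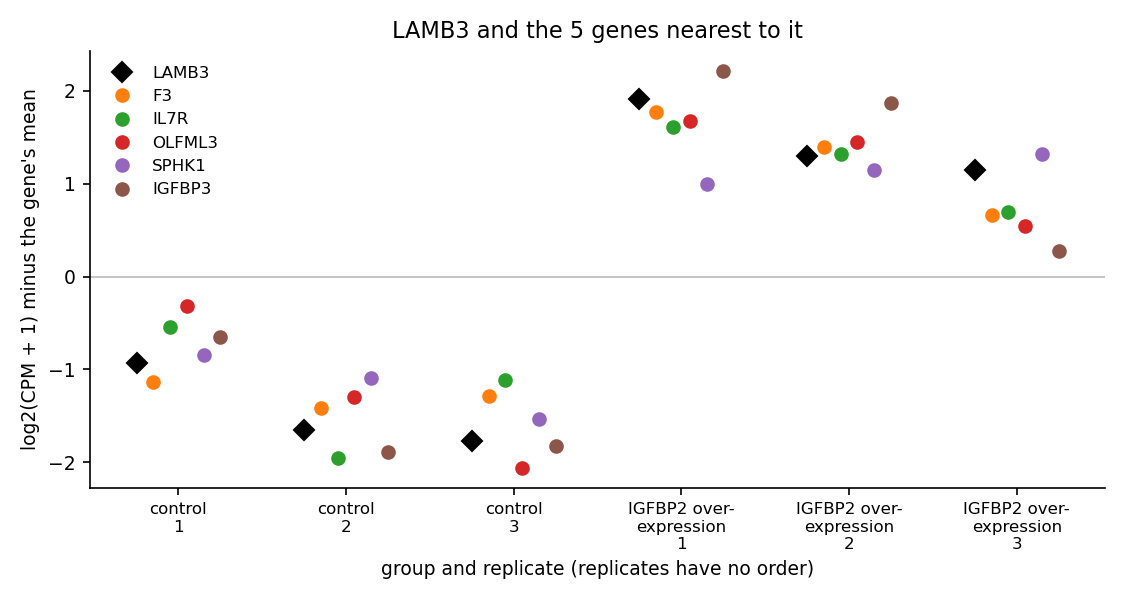
Log2(CPM + 1) minus each gene's own mean over the 6 libraries, for LAMB3 (black diamonds) and the 5 genes nearest to it (coloured circles), by group and replicate. All 6 genes are below 0 in the control and above 0 in the IGFBP2 overexpression libraries, and the points are most spread in IGFBP2 overexpression replicates 1 and 3.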

How the data were processed

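MDAMB468 RNA (3 control and 3 IGFBP2 overexpression replicates, grouped by the labels) was made into QuantSeq libraries, from 100 ng of RNA per the labels. The paper states a larger amount of total RNA. The authors used bbduk for trimming, STAR for alignment to hg38, htseq-count for gene counts (HTSeq 0.9.1 in the submitters' processing notes) and edgeR for normalization. The authors' filter was an average CPM over 5 in either condition, and the deposited values are log2(CPM + 1).

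CPM was obtained by undoing the log2 and subtracting the pseudocount of 1, and 100% of values were whole reads within 0.05 reads. The paper names no molecular identifiers for these libraries, so read numbers were taken to bound counting error only. Limma 3.58.1 (R 4.3.3) was fitted to all 10487 genes on the log2 scale, two-sided, with a term for condition alone and without a mean-variance trend, with Benjamini-Hochberg adjustment at 0.05. This setting was taken with earlier counts of these data known, as were the members, the related lists and the tests. Alternatives covered scaling, variance model (trend, limma voom), pseudocount, a low-value filter, a replicate block and each library left out.

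Symbols were matched for 10462 identifiers, with positions from GENCODE 44. Named genes were IGFBP2, the members, markers, genes past the threshold or the 2 smallest p-values of each related list, and the 5 genes nearest to LAMB3. The same rule for LAMA3, and the ratio of LAMB3 to LAMA3, could not be applied. Of the related genes, 1 is not reported here and was left out of the lists and their counts. Beyond the rule, 9 genes (CD9, KRT5, KRT14, FOS, FOSB, FOSL1, FOSL2, JUN and JUND) were named after their values were seen. With 3 libraries against 3, an exact permutation test cannot go below 0.1 (two-sided), so none is given.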

Additional observations from a re-analysis of the deposited data

How the results depend on the processing

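LAMB3, which was chosen on this comparison, had a log2 fold change from 2.31 to 3.17 over the 15 alternatives, given as a description. The count of all genes called, 66, became 160 with a mean-variance trend, 141 with limma voom, 37 with a pseudocount of 0.1 and 129 with a pseudocount of 5, and 12 to 79 with a single library left out (12 without IGFBP2 overexpression replicate 1, 13 without replicate 2 of that group and 17 without control replicate 3). The count over the related lists, 1, became 2 (COL4A2 and KRT6B) with the trend, with voom, with a pseudocount of 5 and with an average CPM over 10, and 0 with pseudocounts of 0.1 and 0.5, and it ran from 0 to 2 with a single library left out. With a library left out, the log2 fold change turned sign for PLEC (-0.139 to 0.109, above 0 without control replicate 1 or IGFBP2 overexpression replicate 2), for LAMA5 (-0.328 to 0.086, above 0 without replicate 2 of either group) and for LAMC1 (-0.016 to 0.283, below 0 without control replicate 3). The causes were not tested. For the 18 genes made up of IGFBP2 and the related genes named by rule, of which IGFBP2 and COL4A2 passed the threshold, 258 of 269 combinations of gene and alternative kept direction and side of the threshold, 6 lost the call (COL4A2) and 5 gained it (KRT6B).

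No source used here says that same-numbered libraries of the groups share a culture or batch, and their deviations from the group means correlated at 0.17, -0.06 and 0.08 for replicates 1, 2 and 3, so they were not treated as pairs. Single genes picked after their values were seen, such as CD9, FOS, FOSB and KRT14, were highest in the same replicate of both groups. The share of all genes with this pattern was not counted, so nothing follows from these genes about pairing. With the replicate number as a block, 55 genes were called, 42 of them among the 66, and 1 related gene as before. Low read numbers limit LAMB3, SPHK1 and COL4A2, with 10, 9 and 1 reads in control replicate 3.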

Other observations

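The following genes of the related lists were picked after their values were seen, and their values are given without a test. CD9, a tetraspanin that associates with laminin-binding integrins, was at 209, 146 and 120 CPM in control replicates 1, 2 and 3, and at 198, 145 and 99.2 CPM in IGFBP2 overexpression replicates 1, 2 and 3. In CPM, each library was closest to the same-numbered library of the other group. On the log2(CPM + 1) scale this did not hold for control replicate 3, which was slightly nearer to IGFBP2 overexpression replicate 2. KRT14, a keratin of basal epithelium that hemidesmosomes hold, was at 18.9, 7.23 and 9.30 CPM in control replicates 1, 2 and 3, and at 18.3, 7.75 and 6.24 CPM in IGFBP2 overexpression replicates 1, 2 and 3, so that replicate 1 was the highest in both groups. Its partner KRT5 was at 471, 249.2 and 317 CPM and at 540, 529 and 372 CPM in the same order, again with replicate 1 the highest in both groups.

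The AP-1 subunit gene FOS was at 16.4, 15.3 and 47.7 CPM in control replicates 1, 2 and 3, and at 5.46, 4.52 and 31.5 CPM in IGFBP2 overexpression replicates 1, 2 and 3. FOSB was at 18.0, 10.8 and 58.6 CPM and at 3.90, 4.84 and 58.8 CPM in the same order. Both genes were highest in the replicate 3 library of each group. JUND was at 240, 248 and 272 CPM in control libraries and at 188, 177 and 188 CPM in IGFBP2 overexpression libraries, with no overlap. FOSL2 was at 50.4, 50.1 and 46.5 CPM and at 45.6, 51.3 and 48.6 CPM, and JUN at 158, 195 and 226 CPM and at 137, 150 and 195 CPM, both in the same order and with overlapping groups.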
